A study of Homo sapiens with 2 samples.

Results

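The S100 calcium-binding proteins are described here through 10 genes known in pancreatic carcinoma, S100A2, S100A3, S100A4, S100A6, S100A10, S100A11, S100A13, S100A14, S100A16 and S100P. They were taken by gene name from a table of 58735 genes, and all 10 were found. RNA-seq was done on SUIT-2, an established human cell line from a pancreatic adenocarcinoma, in its highly metastatic form. There was 1 library from cells treated with dihydroartemisinin (DHA, the active form of artemisinin-type malaria drugs) and 1 from untreated cells, labelled NC. No dose, exposure time or vehicle is given in the sources used here. With 1 library per group there is no replicate check and no p-value, and higher or lower refers to these libraries alone.

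S100 proteins are small calcium-binding proteins of the EF-hand type that work mostly as dimers. On binding calcium most of them expose a surface that docks onto target proteins such as annexins and myosin, and some are also secreted and act on the receptor RAGE. Most of the genes lie together on chromosome 1q21, within the epidermal differentiation complex. Several are known for raised levels in pancreatic ductal carcinoma, among them S100P, S100A4, S100A6 and S100A11.

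Treatment with DHA went with a changed make-up of S100 transcripts. S100A4, whose product is known for its part in cell motility and metastasis, was 2.75-fold lower in the DHA library. Its neighbour S100A3 was 3.72-fold lower on few reads, 20 in the DHA library and 80 in the untreated library. It reached the 50 reads needed for a call only in the untreated library. S100A2, with 65 reads in the DHA library and 138 in the untreated library, lay at the 2-fold limit. S100A6, S100A10 and S100A13 had ratios of 0.975, 1.00 and 1.03. S100A11 was 1.58-fold higher and S100A16 1.14-fold higher, both under 2-fold. S100P had 10 reads in the DHA library and 0 in the untreated library, and S100A14 had 0 in both.

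The DHA library held 14521101 counted reads and the untreated library 15452609. Levels between genes are given as TPM, reads divided by the deposited gene length and scaled to the same sum in each library. Ratios are DHA over untreated after TMM scaling (a trimmed mean of log ratios), with a 95% counting interval that covers counting error only. A call of higher or lower needed 50 reads or more in 1 library or both, a difference of 2-fold or more and an interval that excluded a ratio of 1. By this size rule 6.72% of 12064 genes were higher and 10.3% were lower in the DHA library, and the median log2 ratio was 0.04. Of 9 ductal epithelial markers 7 were lower by the same rule. SOX9 did not pass it, and KRT7, with 26 reads in the DHA library and 49 in the untreated library, was not tested. The 9 markers summed to 1383 CPM (counts scaled for library size) in the DHA library and 3446 CPM in the untreated library. Most of each sum came from keratins. KRT8 had 812 CPM in the DHA library and 1939 in the untreated library, KRT18 342 and 800, and KRT19 136 and 423. Among the 7 lower markers, CDH1, MUC1 and CFTR reached 50 reads only through the untreated library. The part of this shift in the S100 values was not tested, and in bulk RNA fewer cells of a type cannot be told apart from less RNA per cell. Outside the ductal list, 1 of 6 fibroblast and 1 of 4 endothelial markers were also lower, and 0 were higher. They were COL1A1, with 11 reads in the DHA library and 83 in the untreated library, and PECAM1, with 54 and 280. COL1A1 reached 50 reads only through the untreated library. The myeloid markers PTPRC, MPO and FCGR3B had 0 reads in both libraries, and the 6 myeloid markers summed to 0.686 CPM in the DHA library and 0.974 CPM in the untreated library. The protocol text names retina, but of 5 photoreceptor markers CRX, RCVRN and SAG had 0 reads in both libraries. Of the others, NRL had 8 reads in the DHA library and 20 in the untreated library, and ARR3 had 2 in the DHA library and 6 in the untreated library.

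The promoters of 4 members are printed first, since S100A4, S100A3 and S100A2 were lower in the DHA library and S100A11 had the highest ratio of the 8 members with at least 50 reads in a library. Each window runs 5′ to 3′ from 250 bases before to 50 bases after a RefSeq transcription start on GRCh38.p14, and all 4 lie on the minus strand of chromosome 1. The windows are chr1:153545757-153546056 for S100A4, chr1:153549209-153549508 for S100A3, chr1:153565795-153566094 for S100A2 and chr1:152036955-152037254 for S100A11. Capitals mark matches, on either strand, to 5 motifs, the TATA box (TATAAA), the AP-1 site (TGANTCA), the antioxidant response element core (TGACNNNGC), the hypoxia response element core (ACGTG) and the GC box (GGGCGG).
S100A4: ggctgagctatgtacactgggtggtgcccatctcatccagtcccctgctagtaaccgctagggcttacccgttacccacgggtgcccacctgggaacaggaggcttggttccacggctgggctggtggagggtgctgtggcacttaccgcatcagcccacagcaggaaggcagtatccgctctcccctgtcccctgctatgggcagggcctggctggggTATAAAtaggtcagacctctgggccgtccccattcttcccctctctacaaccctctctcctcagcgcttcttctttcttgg
S100A3: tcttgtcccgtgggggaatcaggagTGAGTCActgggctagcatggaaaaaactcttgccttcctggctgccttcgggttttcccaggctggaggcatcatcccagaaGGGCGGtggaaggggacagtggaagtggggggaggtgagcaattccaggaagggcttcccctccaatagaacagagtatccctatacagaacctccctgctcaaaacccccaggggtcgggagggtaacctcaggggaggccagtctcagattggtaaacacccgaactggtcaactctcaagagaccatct
S100A2: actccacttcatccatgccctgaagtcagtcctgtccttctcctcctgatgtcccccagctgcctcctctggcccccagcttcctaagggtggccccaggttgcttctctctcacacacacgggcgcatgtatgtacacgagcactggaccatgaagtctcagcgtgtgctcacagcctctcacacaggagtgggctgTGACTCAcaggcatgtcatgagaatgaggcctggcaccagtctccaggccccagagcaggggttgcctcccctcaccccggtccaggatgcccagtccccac
S100A11: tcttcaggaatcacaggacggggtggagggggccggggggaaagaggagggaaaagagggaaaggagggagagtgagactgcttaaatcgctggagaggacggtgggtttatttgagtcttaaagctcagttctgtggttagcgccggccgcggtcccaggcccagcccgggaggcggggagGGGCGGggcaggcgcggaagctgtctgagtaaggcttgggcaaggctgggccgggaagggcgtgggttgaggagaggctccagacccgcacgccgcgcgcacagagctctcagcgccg

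None of the 5 motifs was found in all of S100A4, S100A3 and S100A2. S100A4 holds a TATA box that starts 31 bases before the transcription start, as do S100A13 at 29 and S100P at 28 bases before it. S100A3 and S100A2 hold an AP-1 match, 225 and 52 bases before the start, and the S100A3 window also holds a GC box. S100A2 has a further window (chr1:153563838-153564137), not printed, with 0 matches. S100A11 holds a GC box 68 bases before the start. Among 35116 RefSeq windows of the same length, 11.5% held the TATA box, 7.71% the AP-1 site and 45.0% the GC box. The 10 members have 14 windows, of which 3, 2 and 6 held these motifs. The antioxidant core was found in 3 of the 14 windows, against 13.3% of all, in S100A13, S100A14 and S100A16. The hypoxia core was found in 2, against 21.4% of all, in S100A10 and S100A16. AP-1 and antioxidant matches can share letters, but no member window held both. A match describes the letters and does not show a bound site.

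S100A6, S100A11 and S100A4 led the family in the untreated library, and S100A4 left that leading group in the DHA library. S100A6 (ENSG00000197956, calcyclin, which binds the calcyclin-binding protein CACYBP) had 8635 reads in the DHA library and 9349 in the untreated library, or 2169 and 1987 TPM. It ranked 32nd in the DHA library and 26th in the untreated library among 19951 protein-coding genes by TPM. Its log2 ratio was -0.04 (-0.08 to 0.01), so the libraries differed by less than counting error. S100A11 (ENSG00000163191, calgizzarin, a partner of annexin A1 with a role in plasma membrane repair) had 8083 reads in the DHA library and 5417 in the untreated library. That is 2899 TPM in the DHA library, the highest level in the family there, against 1644 TPM in the untreated library, the third highest.

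The S100A11 ratio of 1.58 had a counting interval of 1.52 to 1.63, so the difference exceeded counting error without reaching 2-fold, and 83.9% of the tested genes had a lower ratio. S100A10 (ENSG00000197747, p11, which holds annexin A2 in a complex at the plasma membrane and does not need calcium for it) had 4521 reads in the DHA library and 4769 in the untreated library. Its log2 ratio was 0.00 (-0.06 to 0.06). S100A16 (ENSG00000188643, a widely expressed member) had 4895 reads in the DHA library and 4525 in the untreated library, a log2 ratio of 0.19 (0.13 to 0.25). In TPM, S100A10 had 715 in the DHA library and 638 in the untreated library, and S100A16 had 702 in the DHA library and 549 in the untreated library. In the DHA library the counting intervals of S100A10, S100A4 and S100A16 overlapped in that order, so their levels could not be ranked. In the untreated library neighbours in the order from S100A6 down to S100A13 had separate intervals, although on transcript lengths in place of the deposited lengths S100A4 stood above S100A6 there (1.09 of its level).

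**Figure D1:**
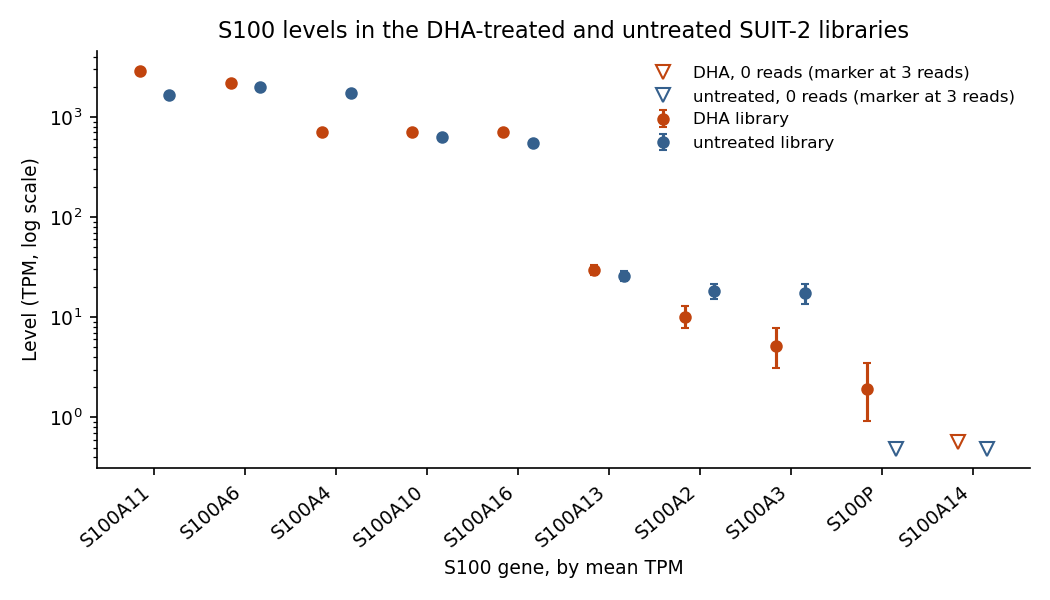
TPM (log scale) of each S100 gene in the DHA library (orange) and the untreated library (blue), with exact 95% Poisson counting intervals as bars; open triangles stand at 3 reads for genes with 0 reads. S100A4 stands at 712 TPM in the DHA library and 1752 TPM in the untreated library, and S100A14 has 0 reads in both.

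S100A4 (ENSG00000196154, chromosome 1, 153543613 to 153550136, minus strand) encodes metastasin, which binds the heavy chain of non-muscle myosin IIA. It had 2993 reads in the DHA library and 8705 in the untreated library, or 712 and 1752 TPM. It was 111th in the DHA library and 32nd in the untreated library among protein-coding genes. The 2.75-fold lower level had a counting interval of 2.64 to 2.87, a log2 ratio of -1.46, and 5.35% of the tested genes had a lower ratio. It is the only abundant member, of the 5 above 500 TPM in both libraries, that passed the size rule. A comparison that needs no scaling gives the same order, since S100A4 had 0.347 reads per S100A6 read in the DHA library (0.332 to 0.361) and 0.931 in the untreated library (0.904 to 0.959). S100A11 had 2.70 reads per S100A4 read in the DHA library (2.59 to 2.82) and 0.622 in the untreated library (0.601 to 0.644).

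S100A3 and S100A2 are neighbours of S100A4 with far fewer reads. S100A3 (ENSG00000188015, chromosome 1, 153547329 to 153549372, minus strand) encodes a cysteine-rich, zinc-binding member known from the hair cuticle. It had 20 reads in the DHA library and 80 in the untreated library, 3.72-fold lower with a wide interval of 2.30 to 6.53. It passed the minimum of 50 reads only through the untreated library, so a lower ratio was a condition of its being tested. The gene lies within the span of S100A4 on the same strand, but the exons of S100A3 and S100A4 share 0% of their length. S100A3 had 0.00668 reads per S100A4 read in the DHA library (0.00408 to 0.0103) and 0.00919 in the untreated library (0.00728 to 0.0115), and these intervals overlap. S100A2 (ENSG00000196754, a nuclear member known from epithelial cells) had 65 reads in the DHA library and 138 in the untreated library. Its log2 ratio of -1.002 (-1.46 to -0.57) lay at the 2-fold limit, and it was called lower under 7 of 11 alternatives. Among these, minimums of 1 and 10 reads, a 1.5-fold limit and protein-coding genes alone left the ratio unchanged and could not undo the call. The call was kept with DESeq2 size factors (-1.04), the upper quartile (-1.07) and TMM without mitochondrial genes (-1.002). It was lost under scaling by total reads (-0.99), a larger pseudocount (-0.95) and both removals of a gene length trend (-0.83 each).

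**Figure D2:**
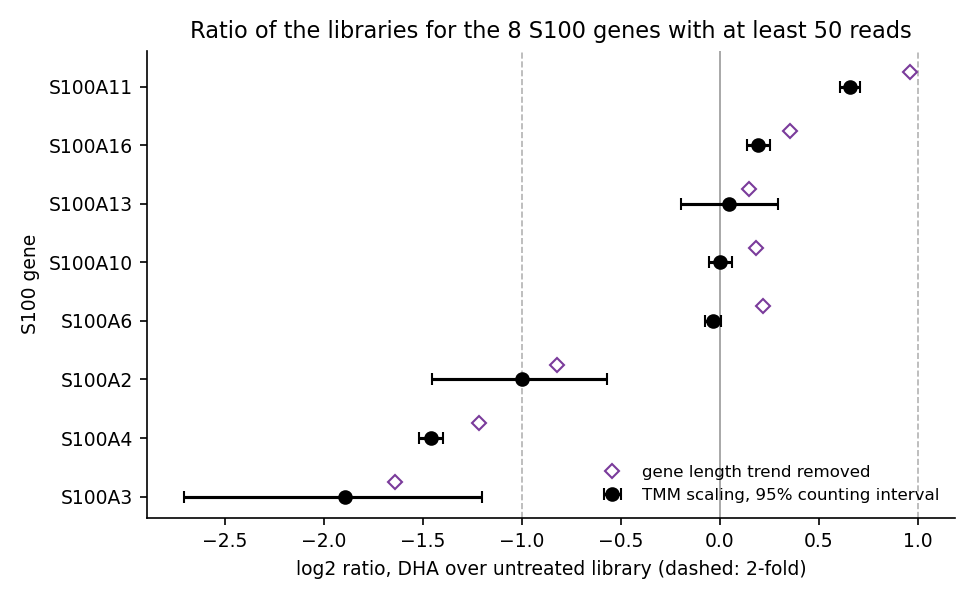
Log2 ratio of the DHA over the untreated library for the 8 S100 genes with at least 50 reads (black points, bars are 95% counting intervals) and the same ratio after a trend on gene length was removed (open diamonds); dashed lines mark 2-fold. S100A3 at -1.89 and S100A4 at -1.46 lie past 2-fold lower, S100A2 lies on the line, and removing the trend moves every point to the right.

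The remaining members were near or at the limit of detection, except S100A13. S100A13 (ENSG00000189171, which takes part in the release of FGF1 and interleukin 1 alpha without a signal peptide) had 271 reads in the DHA library and 277 in the untreated library, a log2 ratio of 0.05 (-0.20 to 0.29). Another gene on the same strand covers 24.2% of its exon length, and a gene on the opposite strand 10.6%, so its counts are less certain. S100P (ENSG00000163993, chromosome 4, 6693069 to 6697170, plus strand), a secreted member that binds RAGE and ezrin, had 10 reads in the DHA library and 0 in the untreated library. A count of 0 allows up to 3 reads, and against that floor in the untreated library S100P was 3.52-fold higher. This fold leaves out the counting error of the 10 reads, so it is not a lower limit. Its 10 reads are below the minimum, so the size rule did not test it. At a minimum of 10 reads it was called higher. It reached that minimum only through the DHA library, so a higher ratio was a condition of its being tested. S100A14 (ENSG00000189334), a member found mainly in epithelial cells, had 0 reads in both libraries. That allows up to 0.573 TPM in the DHA library and 0.485 TPM in the untreated library.

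Of the 10 members 8 were tested, 0 were higher and 3 were lower, beside background shares of 6.72% and 10.3%. Of the 3, S100A3 was tested only through the untreated library and S100A2 lay on the limit, and no test sets this count against the background shares. The median log2 ratio of the 8 was -0.02, beside 0.04 over all tested genes. Together the 10 members had 29493 reads in the DHA library and 33260 in the untreated library, 0.203% (0.201 to 0.205) and 0.215% (0.213 to 0.218) of the counted reads. S100A4 made up 10.1% of the S100 reads in the DHA library (9.81 to 10.5) and 26.2% in the untreated library (25.7 to 26.6). S100A11 made up 27.4% in the DHA library (26.9 to 27.9) and 16.3% in the untreated library (15.9 to 16.7). S100A6 made up 29.3% in the DHA library and 28.1% in the untreated library.

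**Figure D3:**
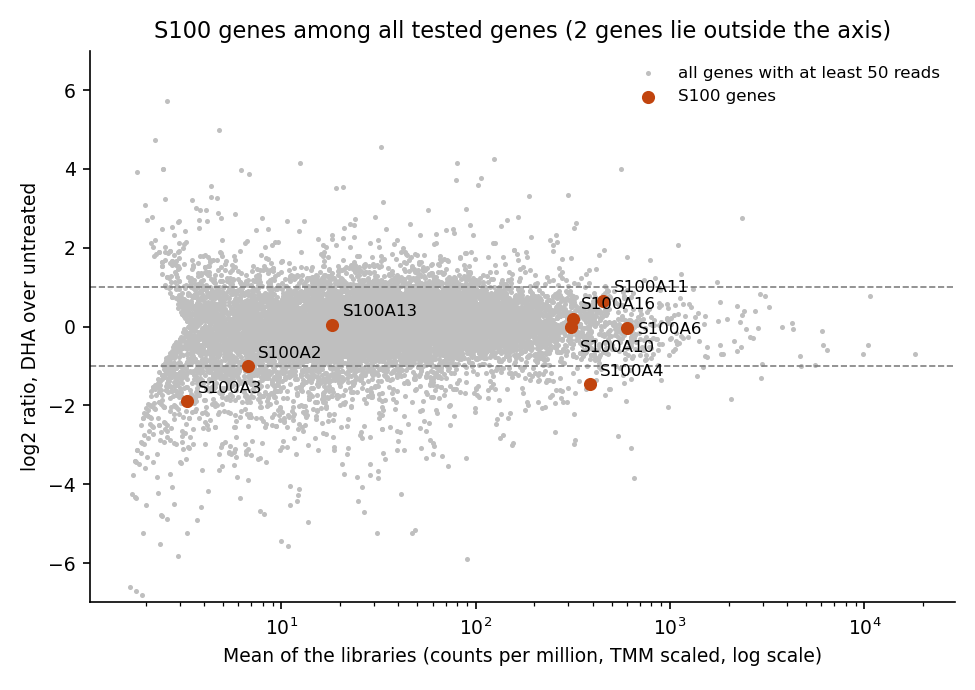
Each grey point is 1 of 12064 genes with at least 50 reads, by its mean level in CPM (log scale) and its log2 ratio of the DHA over the untreated library; S100 genes are orange and labelled, and dashed lines mark 2-fold. S100A4 lies below the dashed line among abundant genes, while S100A6, S100A10, S100A11 and S100A16 lie between the lines.

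Length is a feature the S100 genes share. Their deposited lengths run from 680 bases (S100A11) to 2216 bases (S100A13), and 9 of the 10 are shorter than 2073 bases, the length that 90% of the tested genes exceed. Short genes had lower ratios in these libraries, and the fitted trend at the lengths of the members ran from -0.30 for S100A11 to -0.10 for S100A13. With the trend removed, S100A4 had a log2 ratio of -1.22 and S100A3 of -1.64, both still past 2-fold, and S100A11 had 0.96, just under it. Whether reads were split between related genes was not tested. Protein-coding transcripts of each member were compared with those of the other S100 genes, and the S100 pseudogenes were not compared. The longest identical stretch in the same orientation was 21 bases, between S100A2 and S100A1. In opposite orientation it was 30 bases, between S100A13 and S100A1, and whether the counting used strand is not known.

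The members on chromosome 1 held nearly all the reads of their interval. From S100A10 to S100A1 (chromosome 1, 151982915 to 153632039, GRCh38) the table holds 90 genes, of which 64 are protein-coding and 67 had 0 reads in both libraries. The interval covers the epidermal differentiation complex, which holds cornified envelope genes such as filaggrin and loricrin. The minimum of 50 reads was reached by 8 of its genes, and all 8 were S100 members. S100 genes took 99.7% of the reads of the interval in the DHA library and 99.8% in the untreated library. The 75 genes wholly between S100A11 and S100A6, over 1487 kb, had at most 13 reads in either library. Within the expressed block, S100A14 with 0 reads in both libraries lies between S100A16 and S100A13.

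**Figure D4:**
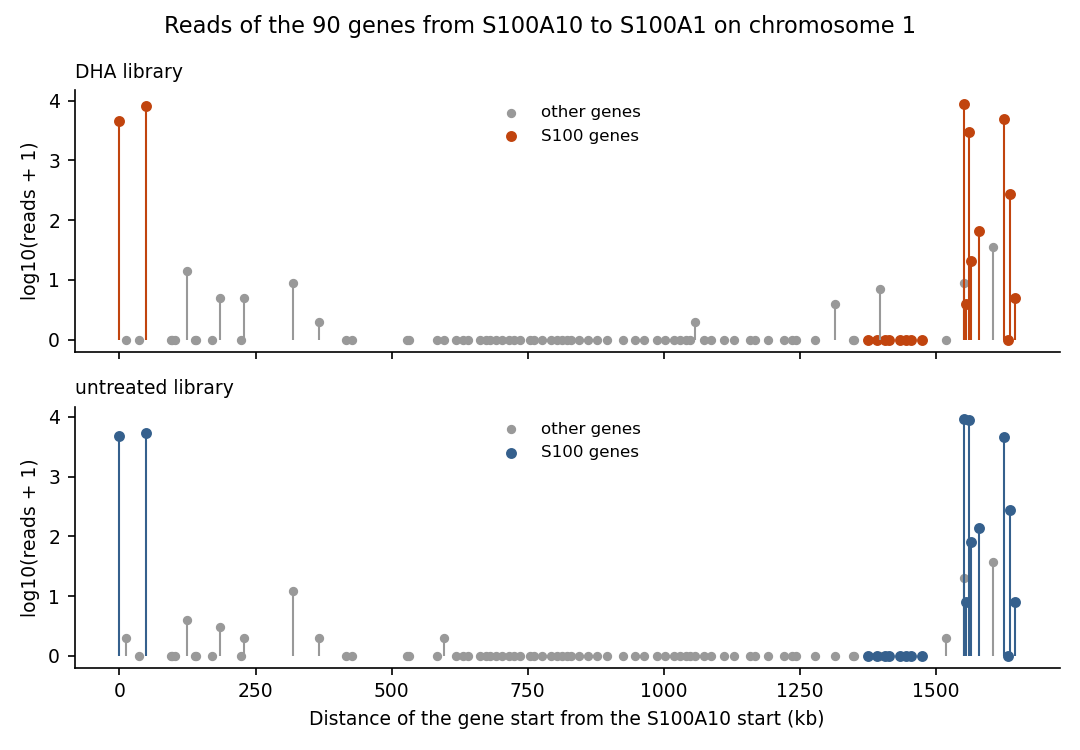
Reads, as log10(reads + 1), of the 90 genes from S100A10 to S100A1 against the distance of each gene start from the S100A10 start in kb, in the DHA library (upper panel, S100 genes in orange) and the untreated library (lower panel, S100 genes in blue); other genes are grey. In both libraries the reads stand at either end of the interval, and no gene that lies wholly between S100A11 and S100A6 exceeds 13 reads.

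Other genes of the family had few or no reads. S100A1 had 4 reads in the DHA library and 7 in the untreated library, and 18.3% of its exon length overlaps genes on the opposite strand, S100A13 among them. S100A5 had 3 reads in the DHA library and 7 in the untreated library. The remaining 9 protein-coding S100 genes outside the members had 0 reads in both, S100A7, S100A7A, S100A7L2, S100A8, S100A9, S100A12, S100B, S100G and S100Z. S100A8, S100A9 and S100A12 are the calgranulins of neutrophils and monocytes, and S100B is the member of glia and melanocytes. The 4 S100 pseudogenes of the table, S100A7P1, S100A11P1, S100A11P2 and S100A15A, also had 0 reads.

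Among 23 genes of proteins that bind S100 proteins, 19 were tested, 1 was higher and 2 were lower, near the shares of 6.72% and 10.3% over all genes, with a median log2 ratio of 0.05. The partners of S100A10 moved in different directions. ANXA2, which encodes annexin A2, had 27201 reads in the DHA library and 25859 in the untreated library, a log2 ratio of 0.15 (0.13 to 0.18). AHNAK, a giant scaffold protein that binds the annexin A2 complex, had 34877 reads in the DHA library and 16717 in the untreated library, 2.20-fold higher. PLAT, the tissue plasminogen activator that binds S100A10 on the cell surface, had 503 reads in the DHA library and 1617 in the untreated library, 3.04-fold lower (log2 ratio -1.60, -1.75 to -1.46). DLC1, which encodes a GTPase-activating protein, had a log2 ratio of -0.07 (-0.27 to 0.12).

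The myosin partner of S100A4 lay close to a ratio of 1. MYH9, the non-muscle myosin IIA heavy chain, had 11918 reads in the DHA library and 12136 in the untreated library, a log2 ratio of 0.05 (0.02 to 0.09). For S100A6, CACYBP had a log2 ratio of -0.03 (-0.10 to 0.03), ANXA11 of -0.72 (-0.80 to -0.64) and TPT1, a growth-related protein, of -0.03 (-0.07 to 0.01). For S100A11, ANXA1 had 0.20 (0.14 to 0.26) and ANXA6 -0.94 (-1.04 to -0.83), just under 2-fold for ANXA6. For S100A13, FGF1 had 2 reads in each library, IL1A had 10 in the DHA library and 7 in the untreated library, and SYT1 had 4 in the DHA library and 8 in the untreated library.

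The partners of S100P and the receptors completed the list. EZR, which encodes ezrin, had a log2 ratio of -0.51 (-0.54 to -0.47), the scaffold gene IQGAP1 0.72 (0.66 to 0.78) and S100PBP, which encodes the S100P-binding protein, -0.41 (-0.58 to -0.23). The genes STIP1, SUGT1, FKBP4 and PPP5C, whose products work with heat shock proteins, had 0.53, 0.63, 0.37 and 0.06. AGER, which encodes RAGE, had 17 reads in the DHA library and 12 in the untreated library, too few to be tested. TLR4, a receptor of extracellular S100A8 and S100A9, had 276 reads in the DHA library and 646 in the untreated library, 2.21-fold lower (log2 ratio -1.15, -1.36 to -0.94). BSG, which encodes the S100A9-binding receptor basigin, had a log2 ratio of 0.35 (0.30 to 0.40).

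**Figure D5:**
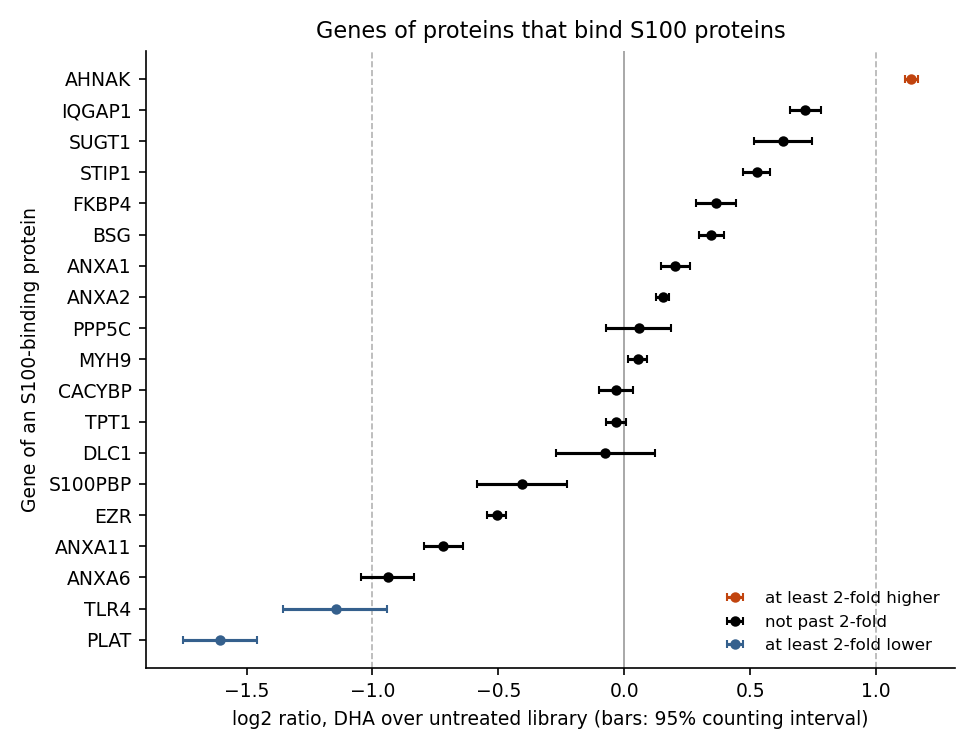
Log2 ratio of the DHA over the untreated library for the 19 tested genes of S100-binding proteins, with 95% counting intervals as bars; orange is at least 2-fold higher, blue at least 2-fold lower, black neither, and dashed lines mark 2-fold. AHNAK at 1.14 lies past the upper line, and TLR4 and PLAT at -1.15 and -1.60 lie past the lower line.

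Annexins and other EF-hand genes gave 2 further comparisons. Of 13 annexin genes, 4 of which are also among the S100 partners, 9 were tested, 0 were higher and 1 was lower, beside 6.72% and 10.3% over all genes. Their log2 ratios lay below 0 for 5 and above 0 for 4, with a median of -0.70 that turned to 0.15 with a minimum of 500 reads. ANXA4, which binds membranes in epithelial cells, had 1551 reads in the DHA library and 6278 in the untreated library, 3.83-fold lower. ANXA5, an abundant membrane-binding annexin, had a log2 ratio of 0.92 (0.87 to 0.97). Of 38 other EF-hand genes 36 were tested, 0 were higher and 2 were lower, beside the same 6.72% and 10.3%, with a median of -0.03, and 29 lay within 0.5 of 0. The lower genes were MYL9, a myosin light chain, 4.40-fold with 33 reads in the DHA library and 155 in the untreated library, and TESC, tescalcin, 4.30-fold with 183 in the DHA library and 833 in the untreated library. MYL9 reached the minimum of 50 reads only through the untreated library, so for it too a lower ratio was a condition of being tested. The EF-hand genes of highest TPM were ACTN4, MYL12B and CALU, with log2 ratios of -0.36, 0.11 and 0.54.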

How the data were processed

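The aligner, the counting tool and its use of strand were not given in the sources used here. Per the labels' protocols, RNA was extracted with Trizol and 1 µg of total RNA went into an Illumina TruSeq library. The same text names retina, and mm8, a mouse build, stands in the submitters' processing notes, whereas all 58735 rows of the deposited table have the identifiers and coordinates of GENCODE release 29 on human GRCh38. The values deposited by the authors are whole-number read counts per gene, with no normalization. The deposited length is the summed length of a gene's merged exons.

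Counts were scaled by TMM (edgeR 4.0.16, R 4.3.3; factor 1.00 for DHA and 0.996 for untreated). Ratios were taken after adding 0.5 reads. Their intervals are exact Clopper-Pearson intervals of the DHA share of a gene's reads, and those of levels are exact Poisson intervals. Reads copied by PCR are not independent, so both cover counting error only. A count of 0 was replaced by 3 reads for a fold. The gene length trend was a lowess curve (span 0.3) over all tested genes.

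The members, lists and size rule were chosen with earlier results of these data known. Some listed genes are not reported here. Named are all members, the other S100 genes, the partners, and among annexins and other EF-hand genes those past the size rule and the 3 of highest TPM. Alternatives were total reads, DESeq2 1.42.0 size factors, the upper quartile, TMM without mitochondrial genes, other read minimums (1, 10 and 500), a pseudocount of 5, a 1.5-fold limit, removal of the length trend and protein-coding genes alone. Fitting that trend without the members, and levels on transcript lengths, were added after seeing the data.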

Additional observations from a re-analysis of the deposited data

How the results depend on the processing

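No paired analysis was possible because each group has 1 library. S100A4 and S100A3 were called lower under every alternative that tested them, with log2 ratios from -1.53 to -1.22 and from -1.96 to -1.64. S100A2 was not, as given above. Other read minimums, the 1.5-fold limit and protein-coding genes alone leave a ratio unchanged, so they could not undo these calls. S100A3 was not tested with a minimum of 500 reads, and it passed the main minimum only through the untreated library. S100A6 and S100A10 kept within 0.22 and 0.18 of 0. The number of members called higher was 1 with a minimum of 10 reads or 1 read (S100P) and with a 1.5-fold limit (S100A11), and the number called lower was 1 with a minimum of 500 reads, which tests fewer genes. Their median was -0.082 under the upper quartile and 0.16 with the length trend removed, however it was fitted. With that trend removed the partner median was -0.063, the annexin median -0.61 and 2 annexins were lower, as with the upper quartile. With a minimum of 500 reads the annexin median was 0.15 and 1 other EF-hand gene was lower. With a minimum of 10 reads or 1 read 1 annexin, ANXA10, was higher. S100P and ANXA10 reached these lower minimums only through the DHA library. For both, a higher ratio was a condition of being tested. At 1.5-fold, 3 partners were higher and 4 lower, 2 other EF-hand genes higher and 4 lower, and 1 annexin higher and 5 lower. Over all genes the numbers higher and lower, 811 and 1245, were 2284 and 2320 at 1.5-fold, 1297 and 2126 with a minimum of 10 reads, 1432 and 2386 with 1 read, and 431 and 379 with 500. With the median length of protein-coding transcripts in place of the deposited length, S100A4 stood at 0.407 of the S100A6 level in the DHA library and 1.09 in the untreated library, beside 0.328 and 0.882, so the order of these genes in the untreated library turned. The cause of these shifts was not tested. Variation between cultures was not measured.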

Other observations

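Among the annexins, ANXA10 was chosen for mention after its values were seen. It had 48 reads in the DHA library and 0 in the untreated library, and it stayed under the minimum of 50 reads. Against a floor of 3 reads in the untreated library it was 16.9-fold higher, without the counting error of the 48 reads.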
